A study of Mus musculus with 25 samples.

Results

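The RNA-seq comparison of the mouse beta cell line βTC6 with the mouse alpha cell line αTC1 is described here across all genes that either line expressed. The ERCC spike-ins, a set of artificial transcripts of known amount put into the RNA, were left out, and a gene was kept when its level was at least 1 FPKM (fragments per length of transcript and per mapped fragments of the library, as the authors scaled them) in all 3 replicates of either line. This kept 12195 of the 24439 genes of the tables, of which 11008 met the limit in αTC1, 11610 in βTC6 and 10423 in both. The study profiled these lines to compare their gene expression and open chromatin. Of its 25 libraries, 6 are RNA-seq, 3 from each line, and a further 10 ATAC-seq libraries, 5 from each line, are used here for the promoters of the same genes. αTC1 is the line alpha TC1 clone 6, a single clone, and βTC6 is the line Beta-TC-6. Both are established lines from islet tumours of transgenic mice that carry the SV40 large T antigen, under the glucagon promoter in the αTC lines and under the insulin promoter in the βTC lines. No treatment was applied to either line, but they were grown in different DMEM media. To that of αTC1 were added HEPES, non-essential amino acids, albumin and glucose, and to that of βTC6 more serum and sodium pyruvate. These are additions to different DMEM products whose own glucose is not stated. They do not show which line was grown in more glucose. Line and medium therefore cannot be told apart in any difference below. Nothing in the sources states that the 3 replicates were separate cultures, so p-values measure the spread between these libraries, which may be technical.

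Alpha cells secrete glucagon when blood glucose falls, and beta cells take up glucose, metabolise it and secrete insulin when it rises. Both types store their peptide hormone in dense-core granules, where prohormone convertases cut it from a longer precursor, and both descend from the same endocrine progenitors. Their identity is held by transcription factors, among them Irx proteins and Pou3f4 in alpha cells and Pdx1, Nkx6-1 and Mafa in beta cells.

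The libraries held between 21954031 and 26033482 expected counts, of which the spike-ins took 0.436% to 0.971%, so that 3 counts in a library, the limit that a count of 0 allows, was at most 1.37e-05% of its total. This limit and the intervals below cover counting error only. Across the genes tested, the Pearson correlation of log2 expression, scaled to library size, was 0.987 to 0.998 within a line and 0.742 to 0.753 between the lines. Replicates 1 and 2 of αTC1 were closer to each other than any other pair of a line, with a chi-square per gene of 2.06 against 17.3 to 38.4, which is still above sampling noise, and both were kept. Replicate 3 of αTC1 stood apart from them for several genes named below. Of 18 spike-ins compared, 4 split the libraries into 2 sets that cross the lines, the first with αTC1 replicates 1 and 2 and βTC6 replicate 2 and the second with the other libraries, which were therefore also compared within each set. There, 10 (first set) and 9 (second set) of 116 counts over lists moved by more than 1.5 times, and 10 of 326 named genes lost their call in each. Values from within the sets stand beside the genes below that lost or gained a call.

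A gene was called higher in a line when its adjusted p in edgeR's quasi-likelihood test was under 5% and its fold change over 4 (over 2 on the log2 scale). By this rule 1245 genes, 10.2% of those tested, were called higher in βTC6 and 498 genes, 4.08%, higher in αTC1. Passing the 5% limit alone were 4715 genes (38.7%) higher in βTC6 and 4387 genes (36%) higher in αTC1, and 3093 genes did not pass it. These 4 shares are the background against which the counts of list members below are to be read. With the libraries scaled to their spike-ins in place of their genes, 2132 and 1434 genes passed the 5% limit, so the number of small differences depends on the scaling. Which line had more such genes depended on it too. The counts in βTC6 and αTC1 were 4426 and 4724 with libraries scaled to their total count, 4371 and 4704 by limma on log2(FPKM + 1), and 4358 and 4682 with 0.1 added in place of 1. The log2 fold change of βTC6 over αTC1, which is the direction of every fold change below, had a median of 0.009 over all genes, and 8343 genes (68.4%) lay within 1 of 0. Of the called genes, 720 in βTC6 and 197 in αTC1 had a log2 fold change beyond 4, and 273 and 43 beyond 8. Most of the called genes did not meet the expression limit in the other line. This held for 963 of the 1245 called in βTC6, which lacked 1 FPKM in all 3 αTC1 replicates, and for 338 of the 498 called in αTC1. In the plot of the mean levels these genes lie towards the left or the bottom, and those with no read in a line lie along the edges. A gene that met the limit in a single line had to be high there, so the counts and medians of lists below describe their tested members and are not evidence of a direction by themselves.

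**Figure D1:**
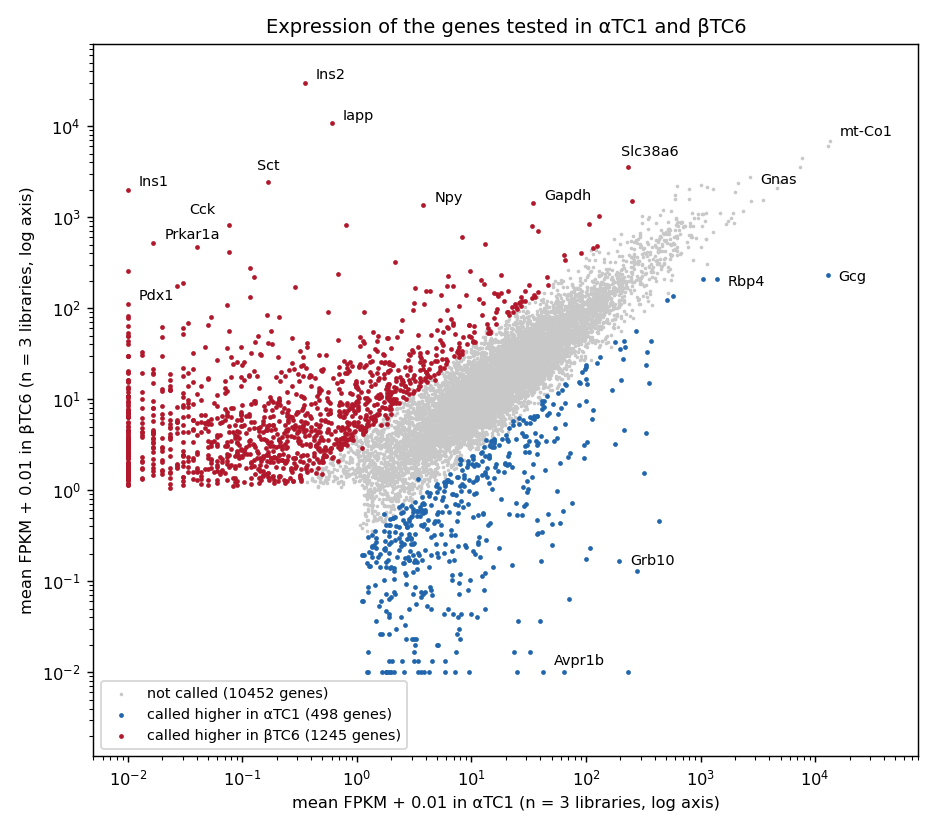
Mean FPKM of the 12195 genes tested, αTC1 on the horizontal and βTC6 on the vertical axis, both log axes with 0.01 added and each a mean of 3 libraries. Red points are the 1245 genes called higher in βTC6, blue points the 498 called higher in αTC1 and grey points the rest; Ins2, Iapp and Sct stand high above the diagonal and Gcg far to its right.

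The genes at the top of each line were its own hormones together with the mitochondrial genome. Ins2 and Ins1, the mouse insulin genes, and Iapp, the amylin that beta cells release with insulin, were called in βTC6, Ins2 and Iapp as its highest genes, and Gcg, which encodes glucagon, was the highest called gene of αTC1. The 250 bases before the transcription start of Ins1, Iapp, Gcg and Sct, but not of Ins2, are printed below because the ATAC-seq data bear on the same promoters. They are RefSeq sequence of build GRCm38.p6, 5′ to 3′ on the gene's strand, at chr19:52264047-52264296 (plus strand) for Ins1, chr6:142298175-142298424 (plus) for Iapp, chr2:62483654-62483903 (minus) for Gcg and chr7:141279134-141279383 (minus) for Sct, which encodes the gut hormone secretin. Capitals mark TAAT or its reverse complement ATTA, the core of the sites of many homeodomain factors, and CATCTG or its reverse complement CAGATG, an E-box of the kind bound by basic helix-loop-helix factors.
Ins1: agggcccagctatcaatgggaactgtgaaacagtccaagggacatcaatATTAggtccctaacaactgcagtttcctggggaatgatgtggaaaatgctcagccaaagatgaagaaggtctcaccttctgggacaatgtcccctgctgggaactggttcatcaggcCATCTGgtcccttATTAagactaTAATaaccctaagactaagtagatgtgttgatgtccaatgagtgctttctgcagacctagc
Iapp: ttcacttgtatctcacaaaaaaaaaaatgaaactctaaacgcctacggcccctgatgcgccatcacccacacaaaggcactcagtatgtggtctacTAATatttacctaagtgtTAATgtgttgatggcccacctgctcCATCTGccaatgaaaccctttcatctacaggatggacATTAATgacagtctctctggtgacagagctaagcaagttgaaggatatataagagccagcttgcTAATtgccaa
Gcg: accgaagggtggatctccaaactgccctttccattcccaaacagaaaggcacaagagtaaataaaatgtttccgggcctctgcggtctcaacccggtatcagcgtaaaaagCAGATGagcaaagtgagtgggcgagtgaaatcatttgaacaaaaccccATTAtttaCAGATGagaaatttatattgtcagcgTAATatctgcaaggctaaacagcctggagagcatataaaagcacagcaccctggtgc
Sct: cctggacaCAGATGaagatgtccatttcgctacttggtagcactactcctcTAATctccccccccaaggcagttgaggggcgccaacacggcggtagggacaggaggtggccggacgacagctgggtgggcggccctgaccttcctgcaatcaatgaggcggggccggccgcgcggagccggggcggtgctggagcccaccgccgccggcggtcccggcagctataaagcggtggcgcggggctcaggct
TAAT occurred 3 times before Ins1, 5 times before Iapp, where 2 of the matches overlap as ATTAAT, 2 times before Gcg and 1 time before Sct, and CATCTG 1, 1, 2 and 1 times, both strands counted. Of 32851 RefSeq promoter windows of the same 250 bases, 54.9% held TAAT and 14.4% held CATCTG. Among 8695 tested genes with a window the shares were 43.0% and 11.6%, among 884 genes called in βTC6 44.9% and 17.8%, and among 323 called in αTC1 50.2% and 13.9%.

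Ins2 had 30953.8, 35747.9 and 23540.7 FPKM in the 3 βTC6 libraries (30081 ± 6150, SD) and 0.64, 0.19 and 0.19 FPKM in αTC1, where it was read 6, 1 and 2 times. The summed counts stood in a ratio of 102683 (95% exact interval of the counting error 54092 to 224561), and the log2 fold change was 16.64 ± 0.40 (SE, edgeR adjusted p = 4.14e-09). It ranked first in every βTC6 library. Ins1 was at 2388.66, 2013.37 and 1598.92 FPKM in βTC6 with no read in any αTC1 library, at least 14487-fold higher against 3 counts per library. Iapp was at 10407.4, 13162 and 8725.06 FPKM against 0.67, 0.91 and 0.2 FPKM (log2 fold change 14.20 ± 0.38, adjusted p = 7.6e-09). For all 3 genes replicate 3 was the lowest of the βTC6 libraries, and the lines were far apart. Together they took 8.27%, 9.34% and 6.37% of the summed FPKM of the βTC6 libraries. Of the 31-base words in the transcripts of Ins1 and Ins2, 4.77% and 5.01% are shared between them, so reads from most of their length can be told apart. In mm9, the build of the tables, Ins1 lies at chr19:52338813-52339946, Ins2 at chr7:149864561-149885415, Iapp at chr6:142246943-142252481 and Gcg at chr2:62312587-62321707.

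Gcg was at 12112.7, 12266.9 and 14405.9 FPKM in αTC1 (12928.5 ± 1282), where it ranked 2 or 3 behind mitochondrial genes and took 2.39%, 2.40% and 2.82% of the summed FPKM. βTC6 was not free of Gcg, with 249.2, 266.94 and 172.22 FPKM (log2 fold change −5.76 ± 0.23, adjusted p = 6.37e-08). Other islet hormones were found in βTC6 as well. Sst, the somatostatin of delta cells, was at 207.09, 234.45 and 325.33 FPKM there and had no read in αTC1, at least 1056-fold higher. Ppy, the pancreatic polypeptide, was uneven among the βTC6 libraries, at 50.81, 3.7 and 23.37 FPKM, against 1 read in each αTC1 library (8.03 ± 1.25, adjusted p = 0.000312).

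Peptides of the gut and the nervous system were also read mainly in βTC6. Sct had 3135.26, 2360.43 and 1776.5 FPKM there against 0.2, 0.09 and 0.18 FPKM in αTC1, a ratio of summed counts of 16083 (interval 6892 to 49535). Cck, the gut hormone cholecystokinin, had 866.18, 856.3 and 745.98 FPKM against 0.14, 0 and 0.06 FPKM (ratio 12783, interval 4374 to 61989). Npy, neuropeptide Y, had 1146.41, 1325.68 and 1590.64 FPKM against 4.69, 4.11 and 2.56 FPKM (log2 fold change 8.55 ± 0.23). All 6 libraries were thus separated by line for each of these peptides. Of the 17 tested members of a list of 30 peptide hormones and neuropeptides, 13 were called in βTC6 and 2 in αTC1, the second being Calca, which encodes calcitonin and CGRP, at 3.42, 3.95 and 3.65 FPKM against 0.33, 0.53 and 0.91 FPKM. The list's median log2 fold change was 8.03, beside 0.009 over all genes, or 6.45 with the 7 members near 0 in a line set to their bound. Of the 17, 16 met the expression limit in βTC6 and 5 in αTC1, so count and median are not evidence of a direction. Pomc, at 5.22 ± 0.91 and 5.23 ± 0.54 FPKM, did not pass the test (adjusted p = 0.8).

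By mean FPKM, 8 of the 15 and 29 of the 50 highest genes of αTC1 were also among those of βTC6. Among the 50 highest, 13 were mitochondrially encoded in αTC1 and 11 in βTC6, and 10 and 12 had the symbol of a ribosomal protein gene or of its pseudogene (Rpl or Rps), genes named Gm not being counted. Called genes made up 3 of the 50 in αTC1 (Gcg, Rbp4 and Tpi1) and 9 of the 50 in βTC6. Rbp4, a retinol carrier, was at 1240.22, 1272.98 and 1678.47 FPKM in αTC1 and 257.6, 188.91 and 182.93 FPKM in βTC6 (−2.68 ± 0.17). Gnas, the stimulatory G protein subunit that couples hormone receptors to cAMP, was among the highest genes of both lines, at 2688 ± 106 FPKM in αTC1 and 2748 ± 176 FPKM in βTC6, and did not pass the test (−0.03 ± 0.12, adjusted p = 0.815). Ttr, the thyroxine carrier transthyretin, was high and uneven in both, at 835 ± 154 and 1116 ± 526 FPKM (adjusted p = 0.215).

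**Figure D2:**
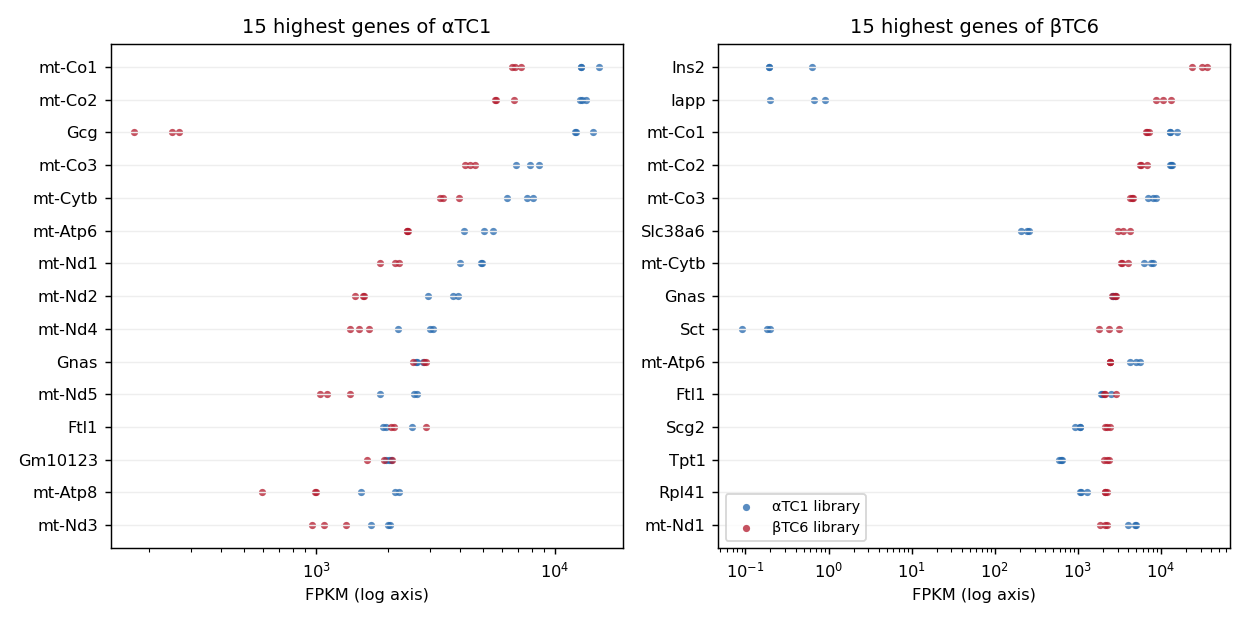
FPKM (log axis) of the 15 highest genes of αTC1 (left) and of βTC6 (right), each point a library, blue for αTC1 and red for βTC6. Gcg in the left panel and Ins2, Iapp, Slc38a6 and Sct in the right panel are the genes whose line means lie apart by more than 4-fold, while Gnas and Ftl1 overlap.

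All 13 protein genes of the mitochondrial genome were higher in αTC1 at the 5% limit and none was called, with a median log2 fold change of −0.94. mt-Co1, a core subunit of cytochrome oxidase, was the highest gene of αTC1, at 12826.7, 12778.5 and 15325.6 FPKM against 6808.72, 6610.75 and 7201.84 FPKM in βTC6 (−0.93). These genes took 12.2% to 13.7% of the summed FPKM in αTC1 and 5.92% to 6.63% in βTC6. Of the gene counts, which are not per length, mitochondrially encoded genes took 6.21% to 6.76% in αTC1 and 3.09% to 3.49% in βTC6. Of the 75 tested nuclear genes for subunits of the respiratory chain, 44 were higher in αTC1 and 17 in βTC6 at the 5% limit, which 36% and 38.7% of all genes passed in these directions, with a median of −0.33. The 1 called among them was Cox6a2, at 1.3 ± 0.71 and 7.27 ± 1.57 FPKM (2.55 ± 0.39), and 2 were called without βTC6 replicate 3. The cytosolic ribosomal proteins went the other way, with 50 of 78 higher in βTC6 and 5 in αTC1, a median of 0.42 and 1 called gene, Rpl21, at 10.78, 7.62 and 6.5 FPKM against 584.57, 564.46 and 682.97 FPKM (6.21 ± 0.17). Copies of ribosomal genes elsewhere in the genome share sequence with them, and 20.2% of the 31-base words of Rpl21 also occur in other genes.

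Slc38a6 and Gapdh, both called in βTC6 and among its 50 highest genes, share sequence with other genes, so their values are less certain. Slc38a6, an amino acid transporter gene, was at 3002.12, 3510.26 and 4186.62 FPKM in βTC6 against 255.34, 240.76 and 205.36 FPKM in αTC1 (3.79 ± 0.16), and 24.0% of its 31-base words occur in other genes. Gapdh, the glycolytic enzyme that is often used as a reference gene, was at 1195.21, 1480.48 and 1584.25 FPKM in βTC6 and only 32.11, 29.01 and 42.85 FPKM in αTC1 (6.44 ± 0.19, adjusted p = 1.32e-08). Of the words of Gapdh, 80.0% are shared with other genes. Adding the 13 genes that share at least 50% of its words left the sum at 30.31 to 44.81 FPKM in αTC1 and 1200.58 to 1588.52 FPKM in βTC6. Copies outside the tables were not summed.

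The largest changes in either direction came from genes that the other line hardly read. Among called genes with at least 5 FPKM in every replicate of the higher line, those with the largest fitted fold changes in βTC6 were Ins1, Ins2, Pdx1, Prkar1a, Wipi1, Sst, Tmem215, Egfr, Gna13 and Abca5. Fitted fold changes of genes with no read in a line depend on the prior count of the fit, and so does their place in this order, so lower bounds are given for them. Pdx1 is described with the transcription factors. Prkar1a, a regulatory subunit of protein kinase A, was at 545.14, 584.4 and 434.56 FPKM in βTC6 and was read 1 time in the 3 αTC1 libraries together. Egfr, the epidermal growth factor receptor, was at 27.55, 15.46 and 17.77 FPKM in βTC6 with no read in αTC1, at least 854-fold higher. In αTC1 the genes of largest fitted change included Gm17431, Avpr1b, Gm10119, Gm2381, Ntn4, Gpr81, Sln, Grap2 and Gm10260. Gm17431, a long intergenic non-coding RNA at chr5:5781530-5783636 (mm9), was at 236.21, 244.7 and 217.18 FPKM with no read in βTC6, at least 3849-fold higher. Avpr1b, a vasopressin receptor, was at 39.33, 38.52 and 47.95 FPKM with no read in βTC6, at least 1394-fold higher. Gpr81, the lactate receptor, was at 75.15, 73.14 and 62.83 FPKM against 0.12, 0.04 and 0 FPKM (ratio of summed counts 3404, interval 1459 to 10486). Gm10119 and Gm10260 share 92.9% and 73.6% of their words with other genes, mainly with Rps3a and Rps18, and their values are uncertain. In all, 327 genes expressed in βTC6 had no more than 3 counts in every αTC1 library, and 61 genes of αTC1 had no more than 3 in every βTC6 library.

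The transcription factors that mark alpha and beta cells were split between the lines, while those of endocrine cells in general were found in both. Of 17 tested genes on a list of beta cell transcription factors, 9 were called in βTC6 and none in αTC1, with a median of 2.19. Pdx1, the factor that pancreas formation and insulin transcription require, was at 104.43, 120.26 and 109.63 FPKM in βTC6 with no read in αTC1, at least 3560-fold higher. Mafa, which activates the insulin genes, was at 41.09, 46.02 and 55.67 FPKM against 0.09, 0.12 and 0.57 FPKM (7.52 ± 0.35). Nkx6-1, in contrast, was present in both lines, at 56.64, 58.62 and 66.72 FPKM in βTC6 and 14.14, 13.31 and 14.06 FPKM in αTC1 (2.19 ± 0.09). Further called members were Hnf4a (ratio of summed counts 2579, interval 462 to 101893), Pax4 (at least 25-fold), Mnx1 (7.53 ± 0.34), Glis3 (4.03 ± 0.25) and Insm1 (2.92 ± 0.10). Pax6, a factor of islet endocrine cells, was higher in βTC6 without being called (1.57 ± 0.10). St18 was likewise higher in βTC6 (0.40 ± 0.14) and Isl1 in αTC1 (−0.57 ± 0.12), neither of them called. Among the general endocrine factors, Neurod1, Nkx2-2, Foxa2, Rfx6 and Myt1 did not pass the test. Their log2 fold changes lay between −0.13 and 0.20, and Neurod1, for example, was at 92.1 ± 7.34 FPKM in αTC1 and 82.0 ± 4.90 FPKM in βTC6 (adjusted p = 0.272).

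A list of alpha cell transcription factors held 10 tested entries, of which 8 were called in αTC1 and none in βTC6, with a median of −4.17, or −4.04 with members near 0 at their bound. Pou3f4 was at 48.08, 53.06 and 50.44 FPKM against 0.43, 0.43 and 0.38 FPKM (−6.85 ± 0.13). Irx1 and Irx2 were at 65.4 ± 8.86 and 170 ± 11.5 FPKM in αTC1 and were also read in βTC6, at 5.36 ± 1.91 and 12.7 ± 1.2 FPKM. Fev (−4.68 ± 0.30) and Gata6 (−2.84 ± 0.33) were called as well, and Irx2 has a second entry in the count. Foxp1 was higher in αTC1 (−1.55 ± 0.07) and Foxp2 in βTC6 (1.90 ± 0.21) at the 5% limit, and Foxp2 passed the 4-fold limit without βTC6 replicate 3 (2.09) and within the first spike-in set (2.32). Both lists were drawn from knowledge of islet biology with earlier results of these libraries known. Beside them, 5 genes of the Hox family, which pattern the body axis and are not islet markers, passed the expression limit, all through αTC1 and none in βTC6, and were called there. Hoxa6 was the highest, at 7.76, 8.77 and 4.92 FPKM, with no read in βTC6.

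Of 19 tested genes for prohormone processing and granule proteins, 15 were higher in βTC6 and 2 in αTC1 at the 5% limit, and 8 were called in βTC6, with a median of 1.43. The prohormone convertases went apart. Pcsk1, which with Pcsk2 cuts proinsulin, was at 88.95, 120.88 and 44.54 FPKM in βTC6 and 0.15, 0.06 and 0.25 FPKM in αTC1 (9.13 ± 0.53). Pcsk2, which cuts proglucagon to glucagon, was at 753.01, 767.51 and 829.94 FPKM in αTC1 and 521.67, 521.5 and 382.18 FPKM in βTC6 (−0.66 ± 0.14, adjusted p = 0.00244), and the libraries of the lines did not overlap. Cpe, the carboxypeptidase that trims the cut ends, was at 1592.19, 1829.54 and 1128.86 FPKM in βTC6 against 255.94, 255.93 and 244.54 FPKM (2.65 ± 0.18). Pam, which amidates peptides, was higher in αTC1 (379 ± 16.3 against 109 ± 33.3 FPKM, −1.80 ± 0.21), and past the 4-fold limit without βTC6 replicate 2 (−2.02) and within the second spike-in set (−2.09). Among the granins, the acidic proteins that fill the granule, Chgb (3.05 ± 0.22) and Scg3 (2.63 ± 0.11) were called and Chga (1.43 ± 0.10) and Scg2 (1.22 ± 0.12) were not, although both were higher in βTC6. Slc30a8, the zinc transporter of insulin granules, was at 146 ± 26.2 FPKM in αTC1 and 235 ± 5.67 FPKM in βTC6 (0.74 ± 0.12).

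Of 29 exocytosis genes, 14 were higher in βTC6 and 8 in αTC1 at the 5% limit, and 5 and 1 were called, with a median of 0.18. Of all genes 38.7% and 36% passed the 5% limit in these directions, and 10.2% and 4.08% were called, beside 17.2% and 3.45% of the exocytosis genes. Cplx1 and Cplx2 encode complexins, small proteins that clamp the fusion complex. Cplx1 was at 193.79, 197.96 and 147.08 FPKM in αTC1 against 2.09, 2.28 and 5.21 FPKM (−5.76 ± 0.33), and Cplx2 at 72.57, 58.39 and 66.59 FPKM in βTC6 against 10.22, 10.98 and 7.49 FPKM (2.84 ± 0.15). Sytl4, the granule protein granuphilin, was at 71.43, 75.14 and 95.16 FPKM in βTC6 and at most 0.24 FPKM in αTC1. Vamp8 and Rims3 were called in βTC6 too (5.10 ± 0.19 and 8.73 ± 0.19). Syt13, a synaptotagmin and the highest member over both lines, did not pass the test, at 146 ± 30.8 and 136 ± 13.6 FPKM (adjusted p = 0.766).

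Of 27 genes for glucose uptake and glycolysis, 20 were higher in αTC1 at the 5% limit and 11 of these were called, with a median of −1.35, while 6 were called in βTC6. Those 6 included genes that mark beta cells. Slc2a2, the low-affinity transporter GLUT2, was at 4.5, 5.56 and 4.23 FPKM in βTC6 and 0.06, 0 and 0.05 FPKM in αTC1. G6pc2, a glucose-6-phosphatase subunit of the islet, was at 740.22, 769.58 and 863.28 FPKM against 32.04, 34.46 and 34.49 FPKM (4.62 ± 0.11). In αTC1 the high-affinity hexokinase Hk1 was at 90.06, 91.53 and 119.38 FPKM against 9.12, 10.59 and 9.14 FPKM (−3.24 ± 0.15). Ldha, which turns pyruvate to lactate and is kept low in beta cells, was at 255.15, 255.21 and 597.06 FPKM against 27.58, 62.99 and 40.05 FPKM (−3.02 ± 0.41). The transporters Slc2a1 and Slc2a3, at 43.2 ± 22.1 and 31.8 ± 15.7 FPKM in αTC1 against 9.57 ± 1.02 and 2.65 ± 0.21 FPKM, were also called. Replicate 3 of αTC1 was the highest of its line for Ldha, Slc2a1, Slc2a3, Eno2 (135.98, 138.76 and 363.65 FPKM) and Tpi1 (895.01, 902.61 and 1326.05 FPKM). Without that library the called count in αTC1 was 9, Eno2 and Slc2a1 being lost at −1.60 and −1.61, and within the first spike-in set it was 7, against 12 within the second. Within the first set the log2 fold changes of Eno2 (−1.70), Slc2a1 (−1.59), Tpi1 (−1.85) and Ldha (−1.94) were all under the 4-fold limit.

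Of 24 tested G-protein-coupled receptors of the islet, 14 were called in βTC6 and 4 in αTC1, with a median of 5.34 (5.01 at the bound). Of the 24, 20 met the expression limit in βTC6 and 10 in αTC1. A receptor that met it in a single line had to be high there, so count and median are not evidence of a direction. Glp1r, the receptor of the incretin GLP-1, was at 66.31, 48.49 and 74.33 FPKM in βTC6 with no read in αTC1, at least 677-fold higher. Ffar1, the fatty acid receptor, was at 55.79, 43.63 and 48.7 FPKM against 0.1, 0.14 and 0.14 FPKM, and Adra2a, the adrenergic receptor that lowers insulin release, at 27.34, 31.96 and 37.66 FPKM against 0.02, 0.06 and 0 FPKM. Sstr3, a somatostatin receptor, was read in both lines and called in βTC6 (3.01 ± 0.12). In αTC1, next to Avpr1b, the called receptors were Gpr119 (24.6 ± 1.03 against 0.72 ± 0.58 FPKM), the neuropeptide Y receptor Npy1r (−6.44 ± 0.32) and the ghrelin receptor Ghsr (−3.97 ± 0.23). Oxtr, the oxytocin receptor, did not pass the test, at 50.4 ± 0.68 and 36.2 ± 9.21 FPKM (adjusted p = 0.0549).

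Of 28 tested genes of cAMP signalling, 10 were called in βTC6 and 3 in αTC1, with a median of −0.58, so that the list held changes in both directions. Besides Prkar1a, Akap12 (6.05), Prkar1b (2.67) and Prkar2b (2.13), which anchor or regulate protein kinase A, were called in βTC6. The 3 called in αTC1 encode phosphodiesterases, which break down cyclic nucleotides, while a further one, Pde4c, was called in βTC6 (1.99 ± 0.67 against 0.04 ± 0.02 FPKM). Those of αTC1 were Pde3a (33.76, 34.92 and 42.54 FPKM against 0.54, 0.33 and 0.5 FPKM), Pde1c (−2.19 ± 0.15) and Pde1a (−6.54 ± 0.30). Within the second spike-in set Prkar2b (1.82) and Pde1c (−1.92) were under the 4-fold limit. Of 18 tested receptor tyrosine kinases, 9 were called in βTC6 and 2 in αTC1. Ret, a receptor of neurotrophic factors, was at 8.70 ± 1.59 FPKM in βTC6 and at most 0.03 FPKM in αTC1. Erbb3 (7.41 ± 0.705 against 0.45 ± 0.15 FPKM) and Pdgfra (1.1 ± 0.07 against 0.19 ± 0.08 FPKM) were called in αTC1.

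Of 36 tested potassium channel genes, 16 were called in βTC6 and 6 in αTC1, shares of 44.4% and 16.7% beside 10.2% and 4.08% of all genes. Kcnip1, a channel-interacting protein, was at 51.07, 47.33 and 49.35 FPKM in βTC6 with no read in αTC1, at least 549-fold higher. The KATP channel that couples glucose to membrane voltage was shared. Its pore Kcnj11 did not pass the test (42.9 ± 2.07 and 46.3 ± 7.38 FPKM, adjusted p = 0.195) and its sulfonylurea receptor Abcc8 was at 81.8 ± 13.1 and 168 ± 6.11 FPKM (1.09 ± 0.12). Of 14 voltage-gated calcium channel genes, 13 met the expression limit in βTC6 and 7 in αTC1, and 7 were called in βTC6 and 1 in αTC1. The pair of T-type channels Cacna1h and Cacna1i was split, Cacna1h at 8.06, 9.12 and 5.39 FPKM in βTC6 with no read in αTC1 and Cacna1i at 9.64, 9.99 and 15.41 FPKM in αTC1 against 0.17, 0.59 and 0.14 FPKM. Of the 5 tested GABA-A receptor subunits 4 were called in βTC6, among them Gabrq (5.12 ± 0.20) and Gabra4 (2.80 ± 0.68 FPKM against at most 0.02 FPKM). All 5 met the expression limit in βTC6 but only 1 in αTC1, so this count is not evidence of a direction. Of 5 voltage-gated sodium channel genes, 1 was higher in βTC6 and called there and 3 were higher in αTC1 at the 5% limit, with a median of −0.53. The 6 ionotropic glutamate receptor genes had 1 called in each line, with 2 higher in βTC6 and 4 in αTC1 at that limit and a median of −0.56.

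**Figure D3:**
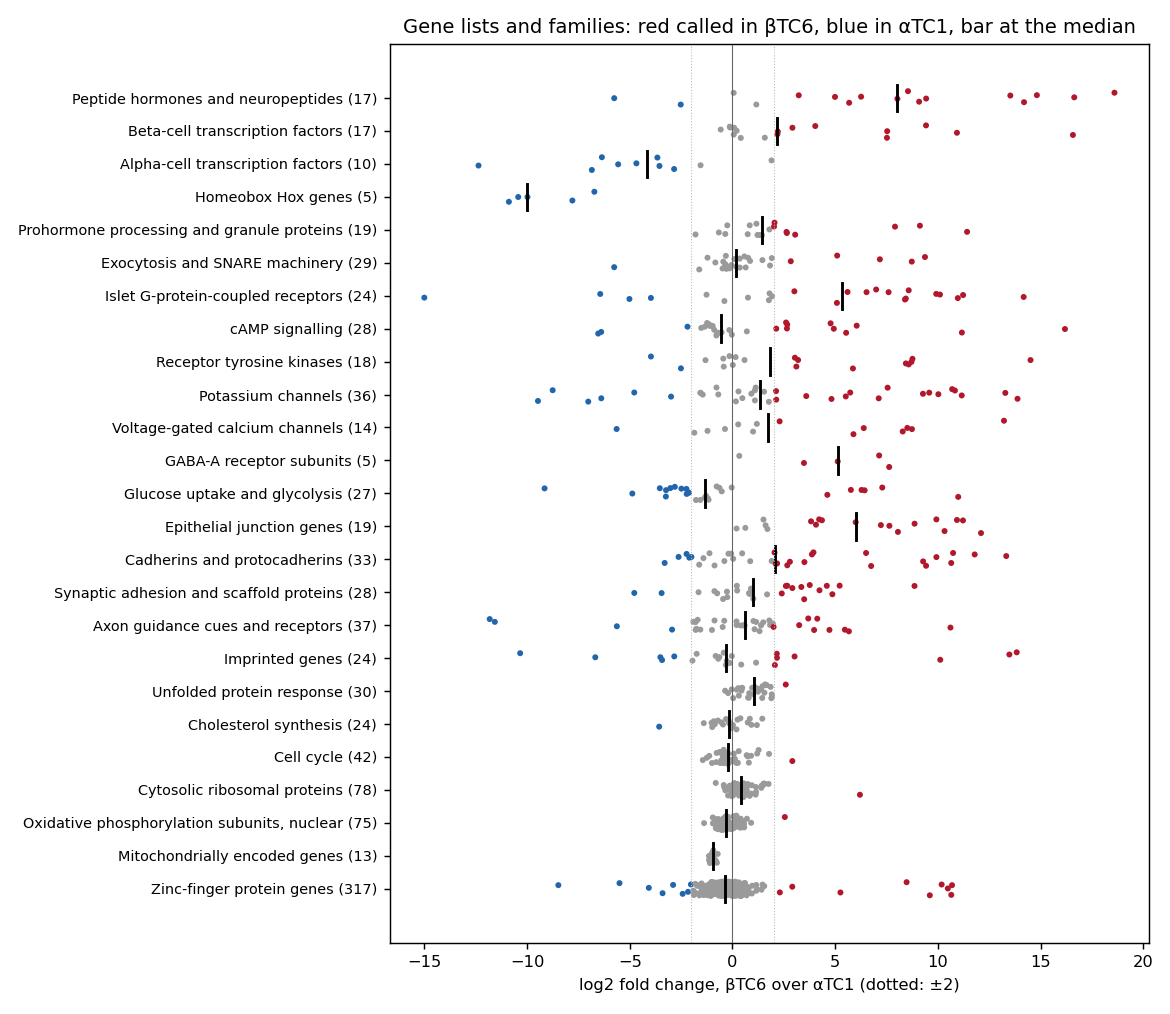
Log2 fold change (βTC6 over αTC1) of every tested member of gene lists and families, the number of members in brackets, with the median as a black bar and dotted lines at ±2. Red points were called in βTC6, blue points in αTC1 and grey points were not called; hormones and epithelial junction genes spread to the right, alpha cell factors and Hox genes lie to the left, and the medians of ribosomal, respiratory and zinc-finger genes lie near 0.

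Of 35 epithelial junction genes 19 were tested, all of which met the expression limit in βTC6 and 6 in αTC1. Of these 19, 18 were higher in βTC6 at the 5% limit and 14 were called, with a median of 6.00 (5.55 at the bound), and none was higher in αTC1. Krt8, an epithelial keratin, was at 71.21, 58.19 and 51.79 FPKM in βTC6 against 0, 0.02 and 0.04 FPKM (ratio of summed counts 2586, interval 885 to 12542). Spint2, a protease inhibitor of epithelial surfaces (7.23), Krt7 (35.7 ± 12.4 against 1.42 ± 0.08 FPKM) and the tight-junction protein Cldn1 (3.83) were called, as was Cdh1, the E-cadherin of epithelia (6.94 ± 2.33 FPKM against at most 0.03 FPKM). Cldn12 did not pass the test (11.9 ± 1.45 and 12.5 ± 1.21 FPKM). The wider family of cadherins and protocadherins moved both ways, with 17 of 33 called in βTC6, such as Cdhr1 (108 ± 23.4 against 0.06 ± 0.02 FPKM), and 5 in αTC1, such as Cdh13 (19.5 ± 4.55 against 1.94 ± 0.55 FPKM). Of 28 synaptic adhesion and scaffold genes, 12 were called in βTC6 and 2 in αTC1, and of 37 axon guidance genes 9 and 4. The shares were 42.9% and 7.14% and then 24.3% and 10.8%, beside 10.2% and 4.08% of all genes. Ntn4, a secreted netrin, was at 33.47, 32.95 and 31.12 FPKM in αTC1 and read 2 times in all of βTC6.

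The unfolded protein response, by which a secretory cell adapts its endoplasmic reticulum to its load, changed in many genes by small amounts. Of 30 genes, 24 were higher in βTC6 and 1 in αTC1 at the 5% limit, with a median of 1.04, but only Dnajc3, a chaperone partner of BiP, was called (8.38 ± 0.22 against 48.6 ± 12.7 FPKM, 2.59 ± 0.18). Calr, the chaperone calreticulin, was at 334.19, 337.54 and 384.83 FPKM in αTC1 and 988.52, 1160.41 and 854.23 FPKM in βTC6 (1.56 ± 0.14). Several genes lay near the 4-fold limit, and the called count was 3 without αTC1 replicate 3, 5 without βTC6 replicate 3, and 6 and 3 within the first and the second spike-in set. Of 42 cell cycle genes only Myc was called (1.01 ± 0.57 against 7.70 ± 3.83 FPKM), with a median of −0.21, and of 24 genes of cholesterol synthesis only Stard4, a sterol transfer protein, in αTC1 (203 ± 13.4 against 16.2 ± 2.16 FPKM). Mitochondrial ribosomal proteins had no called gene among 76, with 17 past the edgeR 5% limit in βTC6 and 33 in αTC1, and the 317 zinc-finger protein genes had 9 and 8 called, with a median of −0.36.

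Imprinted genes, which are expressed from the allele of a single parent, held large changes in both directions. Of 24 tested, 7 were called in βTC6, or 4 without αTC1 replicate 2, and 5 in αTC1. Igf2, a fetal growth factor, was at 400.02, 459.88 and 386.18 FPKM in βTC6 against 0.12, 0.02 and 0.06 FPKM (13.48 ± 0.21), Dlk1 at 241.9, 150.69 and 135.11 FPKM against 0, 0.05 and 0 FPKM, and Nnat, a small proteolipid, at 818 ± 63.9 against 0.8 ± 0.31 FPKM. Grb10, an adaptor that restrains insulin and growth factor receptors, was at 196.38, 200 and 187.28 FPKM in αTC1 and 0.18, 0.1 and 0.19 FPKM in βTC6 (−10.34 ± 0.17), and Peg10 at 46.1 ± 16.2 against 0.54 ± 0.14 FPKM. Meg3, next to Dlk1 in the genome, was at 24.04, 23.94 and 60.07 FPKM in αTC1 and 138.51, 99.82 and 158.8 FPKM in βTC6. It was called in βTC6 at 2.07 ± 0.36, and the call was not stable. It fell below the 4-fold limit in 10 settings, among them without αTC1 replicate 1 (1.83) or 2 (1.84), without βTC6 replicate 3 (1.93), under spike-in scaling (2.00), with the spike-in set as a term (1.88) and, lowest, within the second spike-in set (1.45), and rose to 2.70 without αTC1 replicate 3 and to 2.32 within the first set.

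The Wnt pathway had 3 of 20 tested genes called in βTC6 (Axin2, Lrp5 and Fzd7) and none in αTC1, with a median of −0.20. These shares of 15% and 0, those of the TGF-beta and BMP pathway (17.2% and 3.45%) and those of the MHC and interferon genes (7.14% and 3.57%) lay near the 10.2% and 4.08% of all genes, and nothing is read from them about these pathways. The Notch pathway had 3 of 14 in βTC6, among them the ligand Jag2 (6.29 ± 0.41), and 2 in αTC1, the receptor Notch2 (−2.69 ± 0.20) and its target Hey1 (−2.61), shares of 21.4% and 14.3%. The TGF-beta and BMP pathway had 5 of 29 in βTC6, among them the protease Bmp1 (114 ± 9.96 against 3.11 ± 0.36 FPKM), and 1 in αTC1, the signal transducer Smad3 (−2.77 ± 0.26), or 2 without αTC1 replicate 3 or βTC6 replicate 2. Of 20 circadian clock genes, 11 were higher in αTC1 at the 5% limit and 2 of these were called, Nr1d1 (42.6 ± 4.95 against 8.26 ± 1.07 FPKM) and Rorb (10.7 ± 0.62 against 0.19 ± 0.07 FPKM), while the kinase gene Csnk1e was called in βTC6 (3.62 ± 0.16). Of 28 MHC and interferon genes 2 were called in βTC6, H2-K1 (181 ± 14.5 against 46.6 ± 2.47 FPKM) and Irf7 (2.86 ± 0.29), and H2-K1 was at 1.96 within the second spike-in set. The 1 called in αTC1, Psmb9, shares 99.9% of its words with a second Psmb9 entry and is uncertain, and its call was lost without βTC6 replicate 2 (−1.63) or 3 (−1.74) and within the second spike-in set (−1.81), while it was −4.04 without βTC6 replicate 1 and −4.66 within the first set. Of 14 extracellular matrix genes 4 were called in βTC6 and 1 in αTC1.

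Some markers of other pancreatic cell types passed the expression limit. Of 15 acinar markers 2 passed the expression limit and both were called in αTC1, at log2 fold changes of −4.18 and −3.07. Cela1 was among them, at 3.65 ± 0.06 against 0.41 ± 0.36 FPKM. The summed level of the 15 was 50.5 to 84.2 FPKM in αTC1 and 1.75 to 4.32 FPKM in βTC6, and Cela1 was a small part of it in αTC1. Of the 15, 13 did not pass the limit, so the sum does not describe the markers as a set. Of 10 ductal markers 6 were tested and 4 of these called in αTC1, among them Sox9 (4.42, 4.26 and 4.05 FPKM with no read in βTC6), Car2 and Tff2, and Krt7 in βTC6, with sums of 68.1 to 78.2 and 37.9 to 59.4 FPKM. Of 8 delta and PP cell markers 4 were tested, of which Ghsr and Rbp4 were called in αTC1 and Sst and Ppy in βTC6. Fibroblast markers summed to at most 4.25 FPKM, endothelial markers to at most 9.72 FPKM and leukocyte markers to at most 10.1 FPKM in any library. Their part in the lists above was not tested.

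Position in the genome was not used to choose the genes, and the fold changes were not even across chromosomes. The median log2 fold change was 1.2 over the 415 tested genes of chromosome 14, where 93.5% of genes were higher in βTC6 and 22.4% were called there, beside 10.2% of all genes. Chromosome 11 had a median of 0.48. Among the nuclear chromosomes the lowest medians were −0.76 on chromosome 6, with 10.9% of 579 genes called in αTC1 beside 4.08% of all genes, and −0.67 on chromosome 1. Leaving out any single library moved the median of chromosome 14 only between 1.19 and 1.22. Within chromosome 11, the genes called in βTC6 include an unbroken run of 12 tested neighbours between 108781663 and 110386836 (mm9), from Axin2 to Map2k6, which holds Prkar1a, Wipi1, Gna13 and Abca5 of the genes named above. Of these 12 genes, 11 had no more than 3 counts in every αTC1 library. The highest count of any αTC1 library in the run was 4.05. For ATAC-seq the lowest value of each library was taken as 1 read, so 1 read is a floor that cannot be told from no read. Of the 44 ATAC-seq peaks in the chromosome 11 run, 43 were at 1 read in every αTC1 library. This held for 1.17% of all 65053 peaks. The median in the run was 1 read in αTC1 and 97 reads in βTC6. At 43 of the 44 peaks βTC6 had the more open chromatin, and at the remaining 1 it was αTC1. Further runs of at least 5 called genes, consecutive by start position, were found on chromosomes 14, 16 and 18 for βTC6 and on chromosome 13 for αTC1. Of their peaks, 5 of 15, 0 of 59 and 0 of 26 were at 1 read in every αTC1 library for the runs of βTC6, and in that of chromosome 14, where 2 more tested genes within its bounds were not called, 4 of the 15 peaks were at 1 read in every βTC6 library. For the run of αTC1, 3 of 36 peaks were at 1 read in every βTC6 library.

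**Figure D4:**
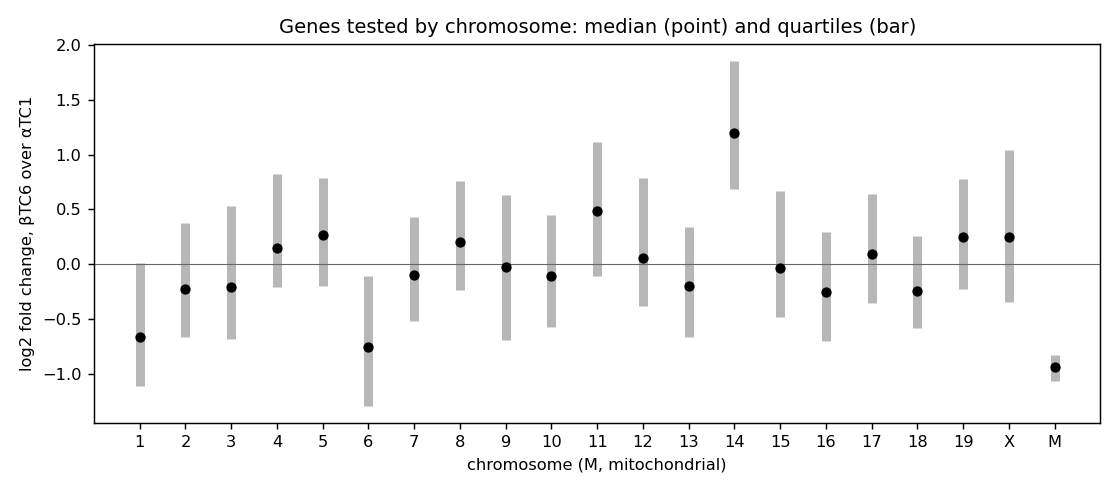
Median (point) and quartiles (bar) of the log2 fold change, βTC6 over αTC1, of the tested genes of each chromosome, M being the mitochondrial genome. Chromosome 14 lies highest with a median of 1.2 and the mitochondrial genome, chromosome 6 and chromosome 1 lowest at −0.94, −0.76 and −0.67.

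Open chromatin at the promoter, an assay of other libraries of the same lines, was compared for the same genes. A peak within 2 kb of the transcription start was found for 11524 of the 12195 genes (94.5%), and limma called it more open in βTC6 for 851 genes (7.38%) and in αTC1 for 1483 genes (12.9%), at an adjusted p under 5% and a fold over 2. Of 1069 genes called in βTC6 with such a peak, 654 (61.2%) had it more open in βTC6 and 19 (1.78%) more open in αTC1. Of 403 genes called in αTC1, 221 (54.8%) had it more open in αTC1 and 13 (3.23%) in βTC6. With a pseudocount of 5 in place of 1, which shrinks the fold of low peaks, the counts in the direction of the RNA were 496 of 1069 and 160 of 403. Across genes, which are not independent, the log2 fold changes of RNA and promoter peak had a Pearson correlation of 0.717 and a Spearman correlation of 0.566.

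The promoter peaks of the hormone genes Ins1, Ins2, Iapp, Sct and Gcg differed in the direction of their RNA. The Ins1 peak was at 1.78 ± 0.58 normalized reads (SD) in the 5 αTC1 libraries and 51.2 ± 11.4 in the 5 βTC6 libraries (log2 fold change 4.23 ± 0.17), and those of Ins2 (1.41 ± 0.67 and 26.2 ± 6.28), Iapp (4.54 ± 0.86 and 44.7 ± 4.05) and Sct (1.38 ± 0.65 and 13.8 ± 3.26) were also more open in βTC6. The Gcg peak was at 154 ± 3.90 in αTC1 and 27.8 ± 3.81 in βTC6 (−2.44 ± 0.09), so that it had more reads in βTC6 than the Ins1 peak had in αTC1. The peak of Pdx1 (0.43 ± 0.23 and 27.1 ± 2.96) was more open in βTC6 too. The Mafa promoter was open in both lines, at 52.7 ± 5.68 in αTC1 and 38.0 ± 5.74 in βTC6 (−0.46 ± 0.11), although its RNA was called in βTC6. Its log2 fold change lay near the median of −0.40 over the promoter peaks of all 11524 genes. Gapdh was among the 19 genes whose promoter went against the RNA, at 63.7 ± 2.61 reads in αTC1 and 19.6 ± 2.42 in βTC6 (−1.66 ± 0.10), and so was Egfr, whose nearest peak held few reads (2.58 ± 1.28 and 0.60 ± 0.50).

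**Figure D5:**
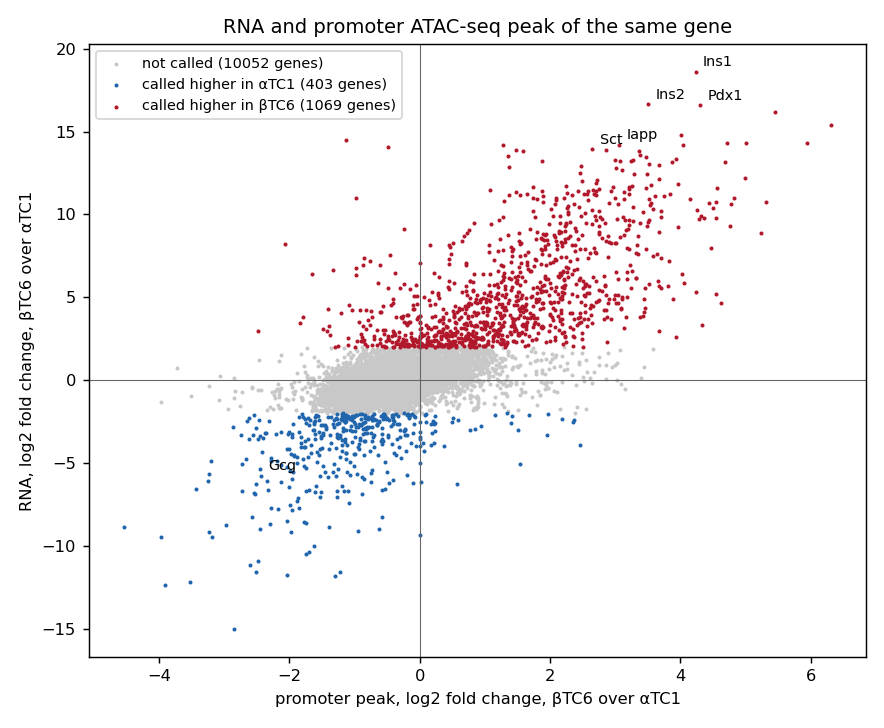
RNA log2 fold change (vertical) against that of the promoter ATAC-seq peak (horizontal), both βTC6 over αTC1, for the 11524 genes with a peak within 2 kb of the start. Red points are genes called higher in βTC6 and blue points genes called higher in αTC1; most red points lie to the right of 0 and most blue points to its left, with Ins1 and Pdx1 at the upper right.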

How the data were processed

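RNA was extracted with Trizol, mixed with ERCC spike-ins, made into stranded KAPA mRNA libraries and sequenced by NextSeq. The authors trimmed the reads (Trim Galore 0.40) and aligned and quantified them (Bowtie2 2.23, RSEM 1.2.12) on mm9 with an Ensembl annotation. They deposited expected counts and FPKM per gene. RSEM was run with default parameters, which do not use strand, so overlapping genes on opposite strands, which 311 called genes have, cannot be separated. For ATAC-seq, the authors deposited a signal, the TMM-normalized read count per consensus peak and library (DiffBind 2.2.5). With the lowest value of each library taken as 1 read, 100% of its values lay within 0.01 of a whole number of reads. This gave 4397851 to 10374903 reads in peaks per library.

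Here the expected counts were rounded and tested with edgeR 4.0.16 (TMM scaling, quasi-likelihood test, Benjamini-Hochberg adjustment over 12195 genes) in R 4.3.3, and each SE was derived from the F statistic. Promoter peaks, the nearest within 2 kb of the start, were tested with limma 3.58.1 on log2(normalized count + 1). Tables were handled in Python 3.11.15 with pandas 2.3.3. A test on simulated data with 200 changed genes among 12195 (log2 change 3) called all 200 and 0 others. Depth is given with the results.

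Members and lists were chosen with earlier results of these data known. The 28 lists and 30 families came from general knowledge of gene function. Named genes were the 15 highest of each line, the 10 largest changes each way among genes of at least 5 FPKM, up to 4 called genes of a list and direction with its highest member, all members of lists of up to 20, the 10 highest genes with a log2 fold change within 0.5 and the 10 highest near 0 in either line. Meg3, Cox6a2, Rpl21 and genes named for an opposite promoter or for overlapping sequence were chosen after their values were seen. The samples of the series other than the 6 RNA-seq and 10 ATAC-seq libraries of the pure lines were not analysed here. Alternatives were other scalings and tools (DESeq2 1.42.0, limma on log2 FPKM, a spike-in factor of unwanted variation coded by hand), other expression limits and leaving out each library. Summing αTC1 replicates 1 and 2, using the spike-in sets, leaving out mitochondrial genes and testing recovered ATAC-seq reads were added after seeing the data. Some genes that meet the rule are not reported here.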

Additional observations from a re-analysis of the deposited data

How the results depend on the processing

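Among up to 326 named genes, no direction reversed under any setting. Many were named for a large change in these same libraries, so a reversal was unlikely beforehand. The most calls were lost by limma on log2(FPKM + 1), for 63 of the 326. Most settings left the counts of called genes (1245 in βTC6, 498 in αTC1) within 1.5 times, with DESeq2 at 1245 and 497, the replicate block at 1241 and 503, spike-in scaling at 1223 and 509, and leaving out a library at 1227 to 1316 and 496 to 522. The replicate block takes samples of the same number as pairs. Their deviations correlated at −0.047, −0.010 and 0.025, so the numbers do not pair the samples, and the block changed no call of a named gene. Spike-in scaling lowered the genes past the 5% limit alone to 2132 in βTC6 and 1434 in αTC1; the cause was not tested. limma on log2(FPKM + 1) called 702 and 277, where the added 1 shrinks the fold of low genes by construction. With no expression limit the counts were 2510 and 1020 over 19570 genes, and with a limit of 5 FPKM 631 and 268 over 9713. By library-scaled expected count, which is not per length, the 15 highest genes held 9.30% of the total in αTC1 and 9.25% in βTC6, in place of 16.4% and 15.7% of the FPKM, and 9 of the 15 of βTC6 were kept. edgeR on the recovered ATAC-seq reads found the promoter peak more open in the same line for 679 genes called in βTC6 and 234 called in αTC1, in place of 654 and 221, and a pseudocount of 5 lowered these to 496 and 160. Taking 0 counts as the limit of detection left 132 genes of βTC6 and 21 of αTC1 as near 0 in the other line, and 10 counts gave 519 and 128. Within the first and the second spike-in set, chosen after seeing the data and with a lone library in an arm that is assumed to vary like the other arm, 1276 and 524 and then 1234 and 531 genes were called. The spread in the first set is only that between αTC1 replicates 1 and 2, the closest pair of a line, so its p-values are too small and its counts rest on the 4-fold limit; in the second it is that between βTC6 replicates 1 and 3.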

Other observations

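The spike-ins that split the libraries did so alike in both lines. The mean log2 share of the 4 spike-ins was 1.02 to 1.07 above the mean over libraries in αTC1 replicates 1 and 2 and βTC6 replicate 2, and −1.01 to −1.05 in αTC1 replicate 3 and βTC6 replicates 1 and 3.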
